A study of Mus musculus with 8 samples.

Results

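This is an account of 6 genes of Schwann cells and of the nerves of the heart: Sox10, S100b, Mbp, Pmp22, Prx and Cnp. They were fixed by name, and each matched 1 row of the count table, so 6 of its 41096 rows are described. All 6 passed the filter on low counts. RNA was taken from the left ventricle of 8 mice, each sequenced as 1 library. The 4 HFD-LNAME mice were fed a diet rich in fat together with L-NAME at 0.5%, which blocks nitric oxide synthesis. They were 12 weeks old and stayed on it for 9 weeks. The pairing of fat and L-NAME is a mouse model of heart failure in which ejection fraction is preserved. The 4 Normal Chow mice were of the same age and ate normal chow for that time. The labels write the strain of both groups as C57BL/5NJ, whereas the row names of the counts are those of C57BL/6NJ. The series also describes mice with and without Nnt, of both sexes, but the labels of these libraries give neither genotype nor sex.

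Schwann cells are the glia of peripheral nerves. Myelinating Schwann cells wrap single axons, while non-myelinating Schwann cells hold bundles of thin axons, which make up most of the sympathetic supply of the ventricle. Sox10 is the transcription factor that sets and keeps the Schwann cell fate. S100b encodes a calcium-binding protein used to stain Schwann cells, which adipocytes make too. Mbp and Pmp22 encode structural proteins of myelin, Prx encodes periaxin, which links the Schwann cell to its basal lamina, and Cnp encodes an enzyme of myelin-forming glia. Of these, Pmp22 and Cnp are also transcribed in many cells outside nerves, Prx in endothelial cells and Mbp in immune cells. In bulk tissue, fewer cells of a type and less RNA per cell cannot be told apart.

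Library totals averaged 36679075 ± 3937988 counts in HFD-LNAME and 48623199 ± 4759599 counts in Normal Chow (SD, n = 4 each; two-sided exact permutation p = 0.0286, the smallest that 4 against 4 libraries allow). Levels are given as CPM, depth-scaled counts, on totals scaled by the trimmed mean of M-values (TMM). They were tested with edgeR's quasi-likelihood test, with Benjamini-Hochberg adjustment over all 14875 genes tested and a threshold of 0.05. Libraries differed in tissue content. Myl7, an atrial myosin light chain, stood at 10.2, 686, 293 and 216 CPM in HFD-LNAME 1 to 4 and at 290, 0.714, 283 and 1.02 CPM in Normal Chow 1 to 4. Ucp1, a marker of brown fat, had 487 and 166 counts in HFD-LNAME 2 and 3 and 0 to 14 counts in the 6 other libraries.

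The promoter of S100b, which with Sox10 separated the groups, is printed with those of Cnp, which hardly differed between groups, and Prx, which overlapped between them. The windows run from 250 bases before to 50 after the RefSeq start (GRCm38.p6). S100b lies at chr10:76253586-76253885, Cnp at chr11:100574689-100574988 and Prx at chr7:27499074-27499373, all on the plus strand. Capitals mark matches to the core motif of SOX factors, searched as ACAAAG and ACAATG on both strands.
S100b: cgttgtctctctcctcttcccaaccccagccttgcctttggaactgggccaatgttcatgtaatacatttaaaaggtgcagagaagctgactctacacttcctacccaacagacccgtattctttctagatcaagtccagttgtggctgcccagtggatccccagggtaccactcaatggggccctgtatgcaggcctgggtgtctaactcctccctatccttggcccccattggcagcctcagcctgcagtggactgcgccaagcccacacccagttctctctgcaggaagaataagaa
Cnp: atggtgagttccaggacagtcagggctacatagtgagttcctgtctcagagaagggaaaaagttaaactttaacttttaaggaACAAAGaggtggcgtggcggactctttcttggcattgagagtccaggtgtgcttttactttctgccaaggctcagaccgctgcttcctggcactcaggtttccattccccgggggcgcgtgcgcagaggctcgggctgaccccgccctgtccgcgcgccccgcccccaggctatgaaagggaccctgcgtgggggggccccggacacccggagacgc
Prx: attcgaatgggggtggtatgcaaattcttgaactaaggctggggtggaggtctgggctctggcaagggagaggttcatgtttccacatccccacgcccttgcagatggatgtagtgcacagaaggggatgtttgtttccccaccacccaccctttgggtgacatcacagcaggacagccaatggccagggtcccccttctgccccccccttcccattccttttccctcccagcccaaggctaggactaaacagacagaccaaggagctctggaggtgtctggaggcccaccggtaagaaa
The motif was found once, in Cnp. Among all 32851 promoter windows of this length, 28.6% held a match. RefSeq gave windows for 4 of the 6 genes, with 4 starts for Pmp22, none of which held a match, so 1 of 7 windows did. A match is a description of letters, not a binding site. Counts per gene do not tell the 4 starts of Pmp22 apart.

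None of the 6 genes passed the threshold between HFD-LNAME and Normal Chow. Sox10 and S100b were higher in every HFD-LNAME library than in any Normal Chow library, at 2.72 and 2.14 times the fitted level, while Mbp, Pmp22, Prx and Cnp overlapped. With edgeR 0 of 6 were called, against 0.0134% of all genes tested (2 of 14875), or 0.00672% higher and 0.00672% lower. The log2 fold change was positive for 5 of 6, against 50.5% of all genes. An unadjusted p under 0.05 was found for 2 of 6, against 9.56% of all genes, and groups that did not overlap for 2 of 6, both higher, against 2.74% of all genes higher, 3.24% lower and 5.98% in either direction. DESeq2 and limma-voom also called 0 of 6, with 2 at an unadjusted p under 0.05 in each. In the authors' deposited table, Sox10 has an adjusted p of 0.129 and S100b one of 0.160. Each library has a mouse number of its own in the labels.

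**Figure D1:**
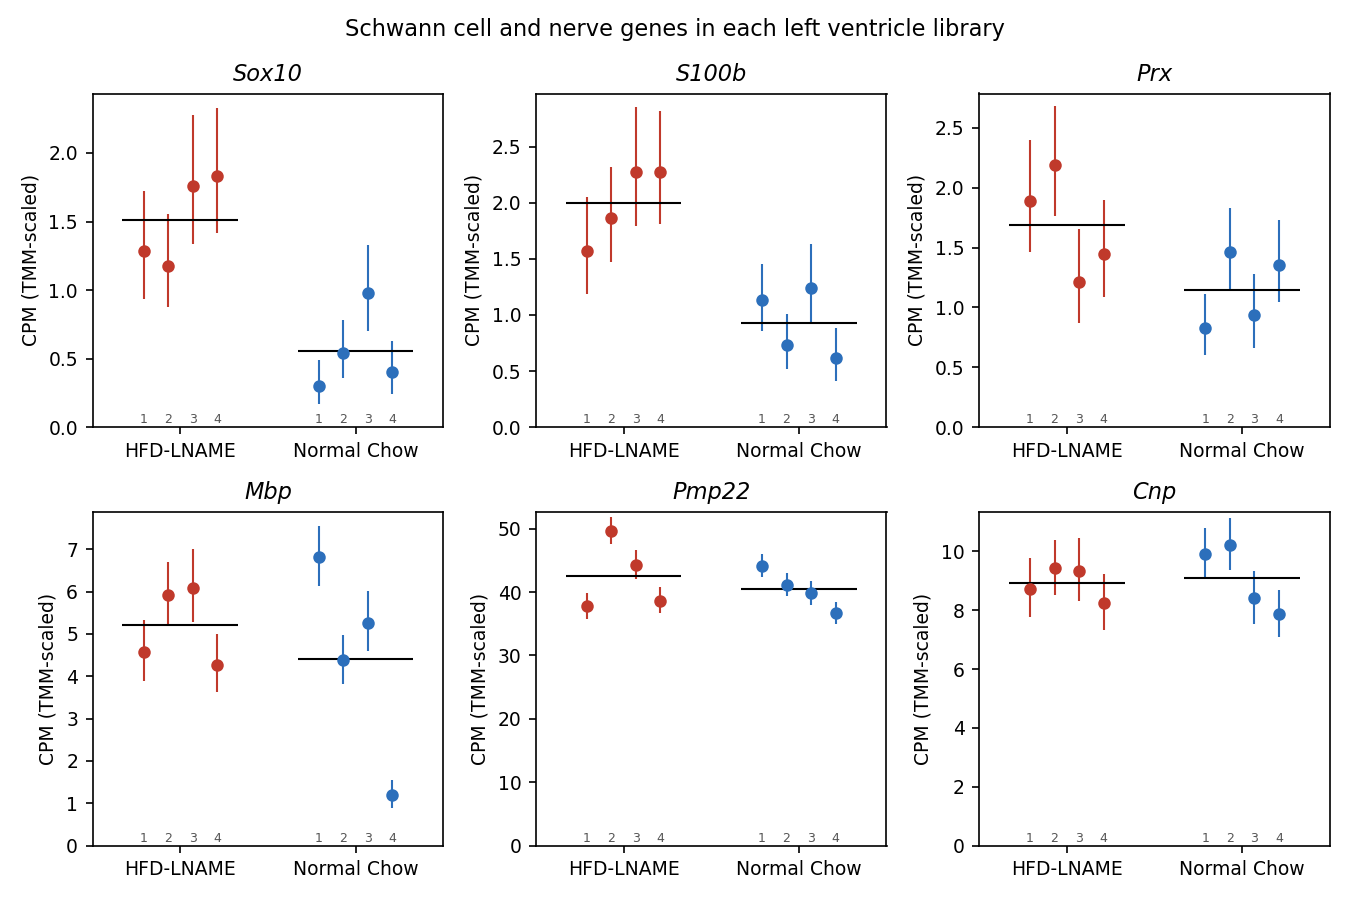
Level of each of the 6 genes (CPM on TMM-scaled totals, linear axes from 0) in the HFD-LNAME and Normal Chow libraries. Points are libraries, small numbers replicates, bars exact Poisson 95% intervals of the count and black lines group means; the groups of Sox10 and S100b do not overlap, and Normal Chow 4 is low in Mbp at 1.19 CPM.

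Sox10, the fate regulator, had 1.29, 1.18, 1.76 and 1.83 CPM in HFD-LNAME 1 to 4, against 0.301, 0.540, 0.981 and 0.402 CPM in Normal Chow 1 to 4. The lowest HFD-LNAME library thus lay above the highest Normal Chow library. The log2 fold change was 1.45 ± 0.47 (SE, n = 4 each; edgeR adjusted p = 0.364, unadjusted p = 0.0104). These levels rest on 45, 50, 58 and 67 counts in HFD-LNAME and 16, 28, 41 and 19 counts in Normal Chow. The gap between the groups was within counting error: HFD-LNAME 2 had an exact Poisson 95% interval of 0.874 to 1.55 CPM and Normal Chow 3 one of 0.704 to 1.33 CPM. The means, 1.51 ± 0.330 CPM in HFD-LNAME and 0.556 ± 0.300 CPM in Normal Chow, differed at the smallest p the design allows (two-sided exact permutation p = 0.0286, n = 4 each, 1 of 6 genes tested so and not adjusted).

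S100b, the calcium-binding protein, had 1.57, 1.86, 2.27 and 2.27 CPM in HFD-LNAME 1 to 4, against 1.13, 0.733, 1.24 and 0.614 CPM in Normal Chow 1 to 4. HFD-LNAME 3 and 4 were the highest and Normal Chow 2 and 4 the lowest, and the groups did not overlap. The log2 fold change was 1.10 ± 0.36 (SE, n = 4 each; edgeR adjusted p = 0.364, unadjusted p = 0.0104). Counts were 55 to 83 in HFD-LNAME and 29 to 60 in Normal Chow, and the Poisson intervals of HFD-LNAME 1 (1.18 to 2.05 CPM) and Normal Chow 3 (0.929 to 1.63 CPM) overlapped. The exact permutation p was again 0.0286 (two-sided, n = 4 each). On the opposite strand S100b overlaps Dip2a, with 0 shared exon bases in GENCODE M21, and Dip2a had a log2 fold change of 0.0040 ± 0.096.

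The comparison was also made on either side of 200 CPM of Myl7. Libraries above it still differed, with 216 to 686 CPM in HFD-LNAME and 283 and 290 CPM in Normal Chow. The groups of Sox10 and S100b do not overlap, so leaving out libraries could hardly turn the direction of either. Among the 5 libraries with Myl7 above 200 CPM (3 HFD-LNAME, 2 Normal Chow), the log2 fold change was 1.32 ± 0.63 for Sox10 and 0.85 ± 0.40 for S100b (edgeR adjusted p = 0.634 for each). The 3 with Myl7 below 200 CPM hold 1 HFD-LNAME and 2 Normal Chow libraries, too few for a comparison; the log2 fold change there was 1.44 for Sox10 and 1.22 for S100b. Without HFD-LNAME 2 and 3, the libraries with most Ucp1, it was 1.49 ± 0.64 and 1.05 ± 0.49 (adjusted p = 0.634 and 0.662). S100b is also an adipocyte transcript. Adipoq, the adipocyte hormone adiponectin, stood at 1.20, 5.42, 3.64 and 0.984 CPM in HFD-LNAME 1 to 4 and at 1.41, 0.289, 0.167 and 0.0423 CPM in Normal Chow 1 to 4. HFD-LNAME 2 and 3 were the highest and the groups overlapped. Adipoq still averaged more in HFD-LNAME, at 2.81 ± 2.11 CPM against 0.477 ± 0.630 CPM in Normal Chow (SD, n = 4 each). Of 10 adipocyte genes tested with edgeR, 9 were higher in HFD-LNAME at an unadjusted p under 0.05, and 0 were lower. Groups did not overlap for 4 of the 10, all higher. The median of the list was 2.35 on the log2 scale, and 0 passed the adjusted threshold. The part of fat tissue in the S100b level was not tested.

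**Figure D2:**
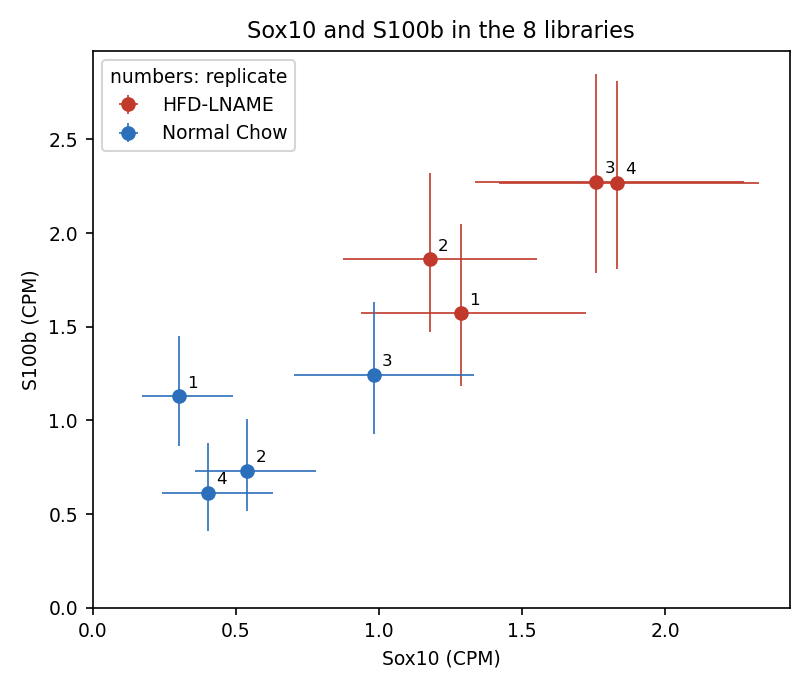
Sox10 (x axis, CPM) against S100b (y axis, CPM) in the 8 libraries, coloured by group and numbered by replicate, with exact Poisson 95% intervals. The 4 HFD-LNAME libraries lie at 1.18 CPM or more of Sox10 and 1.57 CPM or more of S100b, above and to the right of the Normal Chow libraries.

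Mbp, the myelin basic protein gene, had 4.57, 5.91, 6.09 and 4.27 CPM in HFD-LNAME 1 to 4, against 6.81, 4.38, 5.26 and 1.19 CPM in Normal Chow 1 to 4. The highest and the lowest library were both Normal Chow, and the lowest, Normal Chow 4, had 56 counts where the others had 156 to 362. The log2 fold change was 0.24 ± 0.40 (SE; edgeR adjusted p = 0.896). Without Normal Chow 4 it was -0.073 ± 0.22, so 1 library decided its direction.

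Pmp22, the peripheral myelin protein gene, had 37.8, 49.6, 44.3 and 38.7 CPM in HFD-LNAME 1 to 4, against 44.1, 41.2, 39.8 and 36.6 CPM in Normal Chow 1 to 4. Its groups overlapped (log2 fold change 0.08 ± 0.10, edgeR adjusted p = 0.865). HFD-LNAME 2, the library with most Myl7, was the highest, and without it the log2 fold change was -0.0051. Prx, the periaxin gene, had 1.89, 2.19, 1.21 and 1.45 CPM in HFD-LNAME 1 to 4, against 0.828, 1.47, 0.933 and 1.35 CPM in Normal Chow 1 to 4. Its 2 highest libraries were HFD-LNAME and its 2 lowest Normal Chow, with overlap between (log2 fold change 0.56 ± 0.36, edgeR adjusted p = 0.667). Gm15541 on the opposite strand shares 300 of its exon bases in GENCODE M21. Cnp, the glial phosphodiesterase gene, had 8.72, 9.42, 9.34 and 8.23 CPM in HFD-LNAME 1 to 4, against 9.89, 10.2, 8.40 and 7.85 CPM in Normal Chow 1 to 4. Normal Chow held both its highest and its lowest libraries (log2 fold change -0.03 ± 0.14, edgeR adjusted p = 0.969). Between its highest and lowest library Cnp varied 1.30 times and Pmp22 1.35 times, against 2.65 times for Prx, 3.70 times for S100b, 5.74 times for Mbp and 6.09 times for Sox10.

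Per kilobase of merged GENCODE M21 exons, a length taken from another annotation than the one counted, the order of the levels was as follows. Pmp22 was highest, at 19.8 ± 2.56 CPM per kilobase in HFD-LNAME and 18.8 ± 1.45 in Normal Chow (SD, n = 4 each). Cnp came next at 3.79 ± 0.238 in HFD-LNAME and 3.86 ± 0.486 in Normal Chow, then S100b at 1.34 ± 0.230 in HFD-LNAME and 0.627 ± 0.205 in Normal Chow. Mbp stood at 0.642 ± 0.114 in HFD-LNAME and 0.543 ± 0.292 in Normal Chow, Sox10 at 0.544 ± 0.119 in HFD-LNAME and 0.200 ± 0.108 in Normal Chow. Prx was lowest in HFD-LNAME, at 0.302 ± 0.0784, and stood at 0.205 ± 0.0560 in Normal Chow. Mbp and Sox10 lay within their spread of each other in HFD-LNAME, as did S100b and Mbp, and Sox10 and Prx, in Normal Chow.

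It was not shown that the 6 genes move as a block from library to library. Over the 8 libraries, 15 pairs were compared by Pearson's r of log2(CPM + 1), and 0 of 15 passed an exact permutation test after adjustment over the pairs, while 2 had an unadjusted p under 0.05. The closest pair was Sox10 with S100b (r = 0.90, Spearman's rho = 0.88, exact permutation p = 0.00407 and 0.00724, adjusted p = 0.0610 and 0.109, n = 8). Without the 2 libraries farthest from the median of Sox10 r was 0.97, and after centring on the group means it was 0.58 (exact permutation p = 0.127). As both genes separate the groups, the pooled r holds the difference between groups. The other pair with an unadjusted p under 0.05 was Mbp with Cnp (r = 0.65, exact permutation p = 0.0455, adjusted p = 0.259). Without the 2 libraries farthest from the median of Mbp, its r was 0.18. Mbp with Pmp22 gave r = 0.68 (exact permutation p = 0.0692) and rho = 0.79, with r = 0.65 after centring (exact permutation p = 0.0682). Prx and S100b gave r = 0.25 over all libraries and -0.83 after centring (exact permutation p = 0.0273, adjusted p = 0.182). Within groups, libraries high in one thus tended to be low in the other, without passing the adjustment. Positive pairs after centring had the same adjusted p of 0.182. These were Mbp with Cnp, Pmp22 with Cnp and Mbp with S100b (r = 0.71, 0.72 and 0.66, exact permutation p = 0.0306, 0.0485 and 0.0478).

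Among 12074 other named genes of at least 1 CPM on average, the pattern most like that of Sox10 over the 8 libraries was that of Speg (r = 0.98), followed by 6430548M08Rik and Cd99l2 (0.97 each). For S100b these were Cpe, Dnajc1 and Dok7 (0.97 for each), for Mbp Fgfr1, Ptpre and Sf3a3 (0.98, 0.98 and 0.97), and for Pmp22 Sppl2a, Bicc1 and Lair1 (0.98, 0.97 and 0.96). For Prx they were Fabp3-ps1, C130074G19Rik and Smarcd2 (0.97, 0.95 and 0.93), and for Cnp F13a1, Mrc1 and Hcfc2 (0.94, 0.94 and 0.93). Fgfr1, a growth factor receptor gene, shared the low point of Mbp in Normal Chow 4, with 25.1 CPM there and 34.4 to 40.3 CPM in the 7 others. F13a1 and Mrc1, which lead the list for Cnp, are genes of resident macrophages. Speg, 6430548M08Rik, Cpe, Dnajc1 and Dok7 were themselves higher in HFD-LNAME without overlap, while Cd99l2 overlapped. Their r with Sox10 or S100b thus hold the difference between groups. All these r are the highest of many and describe likeness only.

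The label was checked against further genes of the lineage. Mag, a protein of the inner myelin face, had 2, 10, 1 and 0 counts in HFD-LNAME 1 to 4 and 6, 0, 7 and 36 counts in Normal Chow 1 to 4, too few for the test. A count of 0 allows up to 3 counts, or 0.0820 CPM in HFD-LNAME 4 and 0.0579 CPM in Normal Chow 2. Of 22 myelin genes 21 had a row and 9 were tested. Genes of Schwann cells in general were better covered, with 21 of 24 tested. Cdh19, a Schwann cell cadherin gene, averaged 5.41 ± 1.82 CPM in HFD-LNAME and 4.18 ± 0.826 CPM in Normal Chow (SD, n = 4 each). Markers of other cells with Sox10 or Mbp were checked too. Of 8 oligodendrocyte genes 6 had a row and 2 were tested, with Opalin at 16 counts in Normal Chow 2 and 0 elsewhere. Dct, an enzyme of melanocytes, which also use Sox10, averaged 3.81 ± 1.28 CPM in HFD-LNAME and 3.79 ± 0.295 CPM in Normal Chow. Pmel, a melanosome gene, had 35, 9, 14 and 30 counts in HFD-LNAME 1 to 4 and 17, 0, 0 and 17 counts in Normal Chow 1 to 4, with overlap (log2 fold change 1.82 ± 1.08, edgeR adjusted p = 0.632). The summed level of the 7 melanocyte genes with a row was 61.9 to 88.1 CPM in HFD-LNAME and 60.7 to 70.7 CPM in Normal Chow, most of it from Mitf, which other cells transcribe too (53.3 to 80.5 CPM in HFD-LNAME and 51.9 to 59.8 CPM in Normal Chow), with Tyrp1 at 0 counts in all Normal Chow libraries and in HFD-LNAME 3. The part of these cells in the levels of Sox10 was not tested.

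Across 4 lists of nerve genes other than the 6, edgeR called 0 of 66 tested genes, as did DESeq2 and limma-voom. An unadjusted p under 0.05 was found for 5 higher and 2 lower, beside 5.02% higher and 4.54% lower among all genes tested. The median log2 fold change of the 66 was 0.17, with 43 positive and 23 negative, and that of all genes was 0.0024. In the list of Schwann lineage and non-myelinating Schwann genes the median was 0.36 over 21 tested, with 3 higher and 0 lower at an unadjusted p under 0.05. These were Chl1, a cell adhesion gene (2.24 ± 0.436 CPM in HFD-LNAME and 1.04 ± 0.563 CPM in Normal Chow), Kcna1, an axonal potassium channel gene (1.83 ± 0.433 CPM in HFD-LNAME and 1.02 ± 0.202 CPM in Normal Chow), and Scn7a, a sodium channel gene of non-myelinating Schwann cells (40.3 ± 6.84 CPM in HFD-LNAME and 31.5 ± 3.74 CPM in Normal Chow; SD, n = 4 each). Their edgeR adjusted p were 0.430, 0.473 and 0.426. Kcna1 and the neurotrophin receptor gene Ngfr (log2 fold change 1.05 ± 0.49, adjusted p = 0.541) had groups that did not overlap, both higher, as did Mal of the myelin list, which was lower. Over all genes tested the shares were 2.74% higher and 3.24% lower.

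Erbb3, the neuregulin receptor of Schwann cells, had a log2 fold change of -0.16 ± 0.13 and Egr2, the regulator of myelination, one of 0.0033 ± 0.23. In the myelin list the median was 0.09 over 9 tested, with 0 higher and 2 lower at an unadjusted p under 0.05. These were Mal, a membrane raft protein gene (18.6 ± 4.39 CPM in HFD-LNAME and 23.7 ± 0.856 CPM in Normal Chow), and Cadm4, an adhesion gene of the myelin sheath (23.4 ± 3.29 CPM in HFD-LNAME and 30.7 ± 4.80 CPM in Normal Chow; SD, n = 4 each). Both are also transcribed outside nerves, and their adjusted p were 0.492 and 0.370. Thus the members of the myelin list with the smallest p lay below Normal Chow, and those of the Schwann lineage list above it, without a test of the difference between the lists.

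**Figure D3:**
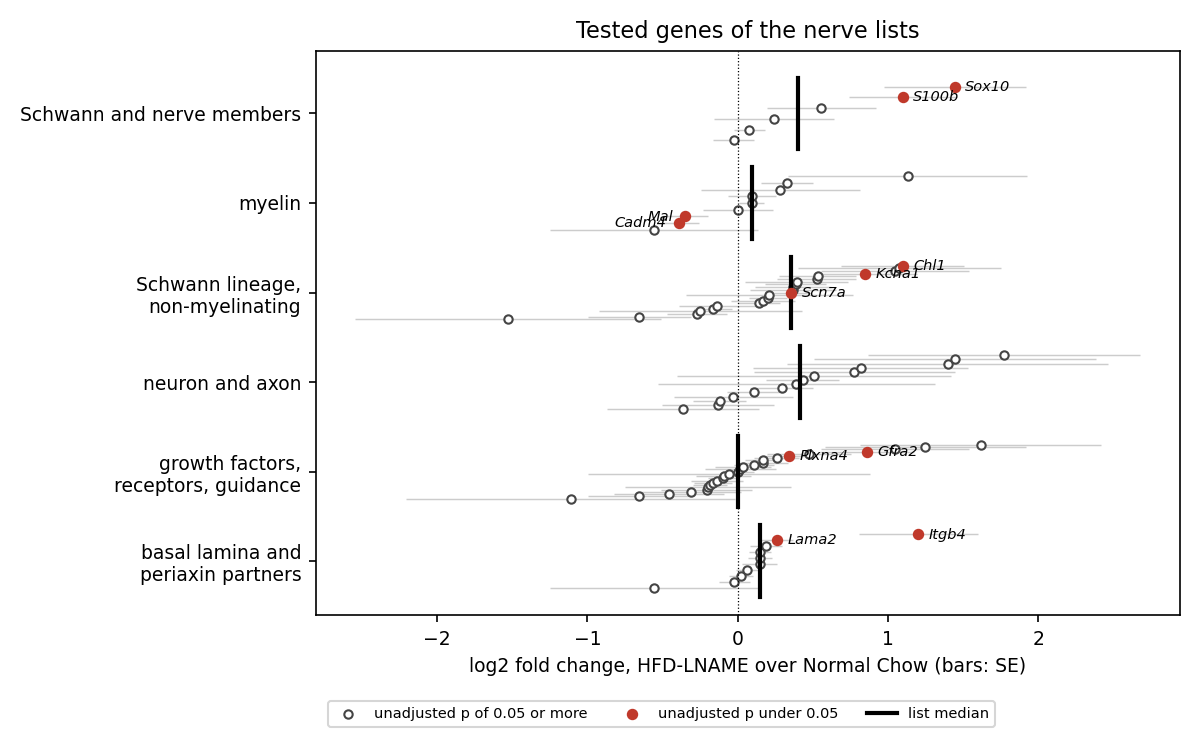
Log2 fold change (HFD-LNAME over Normal Chow, x axis) with its SE for each tested gene of 6 lists (rows); filled red points have an unadjusted p under 0.05 and are named, and black bars are list medians. No gene passed the adjusted threshold; the medians lie between 0.0037 and 0.41.

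Growth factors, receptors and guidance genes had a median log2 fold change of 0.0037 over 25 tested, with 2 higher and 0 lower at an unadjusted p under 0.05. These were Gfra2, the neurturin co-receptor gene (3.13 ± 0.957 CPM in HFD-LNAME and 1.72 ± 0.554 CPM in Normal Chow, adjusted p = 0.421), and Plxna4, a semaphorin receptor gene (33.1 ± 6.23 CPM in HFD-LNAME and 26.2 ± 4.54 CPM in Normal Chow, adjusted p = 0.509; SD, n = 4 each). Nrg1, the axonal ligand of Erbb3, had a log2 fold change of -0.06 ± 0.94. Partners of periaxin and of the basal lamina had a median of 0.15 over 10 tested, with 2 higher and 0 lower. Their summed level was 1882 to 2079 CPM in HFD-LNAME and 1763 to 1853 CPM in Normal Chow, without overlap. That sum follows its abundant genes. Dag1, the 1 gene of the list without overlap, gave 545 to 616 CPM of it in HFD-LNAME and 498 to 537 CPM in Normal Chow (edgeR adjusted p = 0.546). Itgb4, an integrin of Schwann and perineurial cells, averaged 4.89 ± 2.04 CPM in HFD-LNAME and 2.13 ± 1.06 CPM in Normal Chow, with overlap (adjusted p = 0.368). Lama2, a laminin chain gene of the Schwann cell and muscle basal lamina, averaged 200.3 ± 30.1 CPM in HFD-LNAME and 167 ± 10.5 CPM in Normal Chow (adjusted p = 0.473; SD, n = 4 each). Drp2, which binds periaxin, added 0.137 to 1.04 CPM in HFD-LNAME and 0.289 to 1.76 CPM in Normal Chow, with a log2 fold change of -0.56 ± 0.69.

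Neuron genes as a list did not separate the groups, while some of its rarest transcripts were found in few libraries. Of 33 genes of peripheral neurons and axons 32 had a row and 14 were tested, with a median log2 fold change of 0.41 and 0 at an unadjusted p under 0.05. The groups overlapped for all 14. The summed level of the 32 was 102 to 146 CPM in HFD-LNAME and 99.8 to 126 CPM in Normal Chow. Most of that sum was 1 gene, Hand2 (63.2 to 113 CPM in HFD-LNAME and 62.1 to 98.8 CPM in Normal Chow), so it says little of the others. Uchl1, a neuronal ubiquitin hydrolase gene, had 237 to 524 counts in HFD-LNAME and 450 to 554 in Normal Chow, and Stmn2, a gene of growing axons, 231 to 482 in HFD-LNAME and 194 to 468 in Normal Chow. The 18 untested genes held 762 counts in all, of which 609, or 79.9%, were in HFD-LNAME 2 and 3, libraries that held 21.3% of all counts. As the filter drops genes counted in few libraries, this share is in part set by it and describes only these low counts. Slc5a7, the choline transporter of cholinergic neurons, had 67 and 22 counts in HFD-LNAME 2 and 3 and 0 in the 6 other libraries. Th, the first enzyme of noradrenaline synthesis, had 13 counts in each of the same pair and 0 elsewhere. Chat, Slc18a3, Chrnb4 and Scg2 were also at 0 in those 6 libraries. Syt1, a synaptic vesicle gene, had 76 and 37 counts there and 0 to 3 elsewhere, and Prph, a neurofilament gene of peripheral neurons, 65 and 63 counts against 0 to 20.

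Dbh, the last enzyme of noradrenaline synthesis, did not follow them, with 140, 137, 65 and 153 counts in HFD-LNAME 1 to 4 and 242, 78, 226 and 152 counts in Normal Chow 1 to 4 (3.35 ± 1.01 CPM in HFD-LNAME and 3.67 ± 1.70 CPM in Normal Chow, SD, n = 4 each). HFD-LNAME 2 and 3 are also the libraries with most Ucp1 and Adipoq, and both had Myl7 above 200 CPM, as did HFD-LNAME 4, Normal Chow 1 and Normal Chow 3. The part of atrial and fat tissue in these neuronal counts was not tested.

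**Figure D4:**
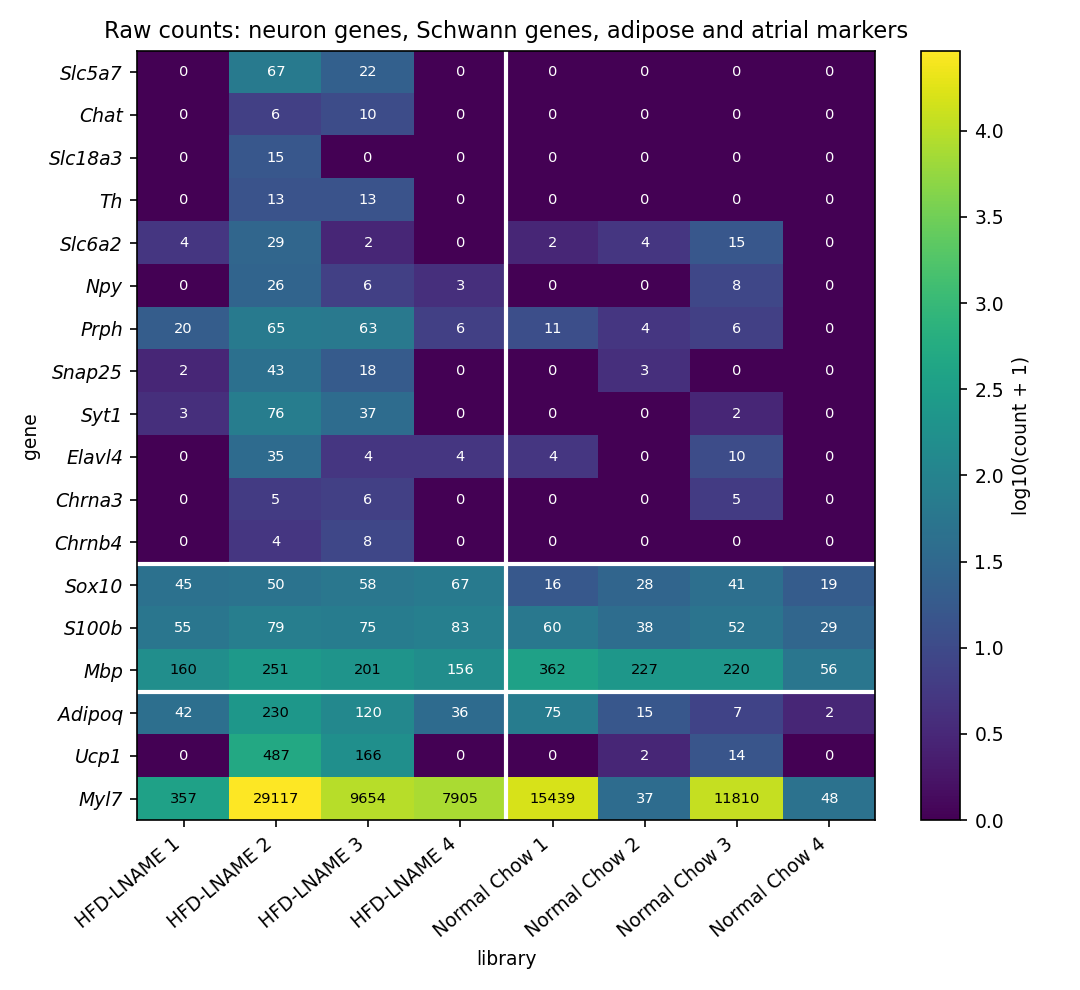
Raw counts of neuron genes (top), Schwann cell genes (middle) and fat and atrial markers (bottom) in each library, printed in the cells and coloured by log10(count + 1). Counts of Slc5a7, Chat, Th and Chrnb4 are found in HFD-LNAME 2 and 3 and are 0 in the 6 other libraries.

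Lists of other cell types that the ventricle holds were set beside these genes. Endothelial genes (14 tested, median log2 fold change 0.14, 3 higher and 0 lower at an unadjusted p under 0.05) summed to 2126 to 2437 CPM in HFD-LNAME and 1984 to 2235 CPM in Normal Chow. Smooth muscle and pericyte genes (13 tested, median 0.36, 5 higher and 1 lower) summed to 1482 to 1731 CPM in HFD-LNAME and 1380 to 1665 CPM in Normal Chow. Fibroblast and perineurial genes (12 tested, median 0.09, 1 higher and 0 lower) summed to 2397 to 3249 CPM in HFD-LNAME and 2161 to 2814 CPM in Normal Chow. The summed ranges of these 3 lists overlap between the groups. Single genes without overlap, all higher, were 1 of 14, 2 of 13 and 0 of 12, beside 2.74% of all genes tested. Those of smooth muscle were Myh11 (86.0 ± 38.1 CPM in HFD-LNAME, 36.5 ± 12.7 CPM in Normal Chow) and Tagln (49.5 ± 24.0 CPM in HFD-LNAME, 18.8 ± 7.17 CPM in Normal Chow). Their edgeR adjusted p were 0.233 and 0.246. Abcc9 of that list was lower, with overlap (370 ± 50.9 CPM in HFD-LNAME, 474 ± 52.4 CPM in Normal Chow). Adipocyte genes (10 tested, median 2.35, 9 higher and 0 lower) summed to 291 to 417 CPM in HFD-LNAME and 183 to 236 CPM in Normal Chow, without overlap. Much of that sum was Plin4, a lipid droplet gene that muscle transcribes too (149 to 249 CPM in HFD-LNAME and 94.4 to 130.2 CPM in Normal Chow). Groups did not overlap for 4 of the 10 tested, all higher, beside 2.74% of all genes tested. Plin4 was 1 of these and Cfd another (2.16 to 8.85 CPM in HFD-LNAME and 0.0579 to 1.56 CPM in Normal Chow, edgeR adjusted p = 0.233). Adipoq and Plin1 overlapped between the groups. Atrial and conduction genes (12 tested, median 0.65, 1 higher and 0 lower) summed to 241 to 4355 CPM in HFD-LNAME and 224 to 2314 CPM in Normal Chow, and ventricular cardiomyocyte genes (10 tested, median -0.15, 0 higher and 3 lower) to 87434 to 111705 CPM in HFD-LNAME and 99014 to 116045 CPM in Normal Chow. Oligodendrocyte genes had a median of 0.70 over the 2 tested and melanocyte genes one of 0.01 over 5, both with 0 at an unadjusted p under 0.05. edgeR called 0 genes in all these lists. The part of these cells in the values of Sox10 and S100b was not tested.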

How the data were processed

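The authors deposited raw counts per gene for 8 left ventricle libraries, made, per the submitters' processing notes, with STAR 2.6 after bcl2fastq 1.8.4 and Trim Galore 0.4.0, and DESeq2 1.22.1 followed. A human build (hg38) stands in the same notes although the rows carry C57BL/6NJ mouse identifiers, so apart from the RefSeq promoter windows no coordinates are given. Neither the counter nor its strand setting is given in the sources used here. Reads shared by overlapping genes therefore cannot be told apart. The labels' protocols name total RNA and the Illumina TruSeq RNA kit. The authors also deposited a table with gene names, log2 fold changes and p-values, of which the names and the adjusted p of 2 genes are used. Its normalised values and its lists of genes below a p of 0.05 were not used.

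Columns were matched to libraries by the mouse number in each title, and replicates are numbered in accession order. Genes were matched by exact symbol. The 6 genes, the gene lists and the rules for naming genes were chosen with earlier results of these data known. The named genes are the 6, up to 4 genes with the smallest p per list, a fixed set of nerve and tissue genes, and the 3 genes most like each of the 6. Those of the lists that no result turns on are not given. Dip2a, Drp2, Dct, Uchl1, Hand2, Opalin, Tyrp1 and the neuron genes without a test were named after their values were seen. A few further nerve genes are not reported here. The test was that of edgeR 4.0.16 under R 4.3.3 (TMM, filterByExpr with its minimum count of 10, no covariate), over all 14875 genes that passed the filter of 41096 rows. SEs were derived from each log2 fold change and its F statistic. Correlations and permutations used SciPy 1.17.1. Library totals ranged from 31522074 to 52053633 counts. Poisson intervals at 95% and the floor of 3 counts cover counting error only. No pair of libraries in a group agreed within sampling noise (chi-square per degree of freedom 25.3 to 64.7). Alternatives were DESeq2 1.42.0, limma-voom (limma 3.58.1), a robust edgeR fit, other scalings, no filter, thinning to the smallest total, and leaving out libraries. The 3 fits without or within libraries high in atrial or fat transcripts and the DESeq2 likelihood ratio test were chosen after seeing the data. The edgeR fit was tested on simulated data.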

Additional observations from a re-analysis of the deposited data

Results flagged for a closer look

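A library far from the other 3 of its group was found in 4 of 59 sets of 4 libraries examined, over the 6 genes and a fixed set of nerve and tissue genes, and chance gives about 1 in 20. Slc6a2, the noradrenaline transporter of sympathetic axons, stood at 0.683 CPM in HFD-LNAME 2 and at 0 to 0.114 CPM in the other HFD-LNAME libraries. Npy, the sympathetic neuropeptide, stood at 0.191 CPM in Normal Chow 3 and at 0 counts in the other Normal Chow libraries. Ngfr stood at 0.251 CPM in Normal Chow 2 and at 0.670 to 0.734 CPM in the others. Ucp1 stood at 0.335 CPM in Normal Chow 3 and at 0 to 0.0386 CPM in the others. No set of the 6 Schwann cell and nerve genes was among them, the low Mbp of Normal Chow 4 included.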

How the results depend on the processing

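No paired analysis was possible because replicate numbers follow accession order and pair no libraries. Over 20 alternatives, 1 of which (Myl7 below 200 CPM) has a single HFD-LNAME library assumed to vary like the others, Sox10 kept its direction in 20 (log2 fold change 1.24 to 1.86, adjusted p 0.0974 to 0.835) and S100b in 20 (0.85 to 1.27, adjusted p 0.117 to 0.835), as did Prx in 20 (0.41 to 0.88), and none of the 6 genes or the listed nerve genes was called in any. As the groups of Sox10 and S100b do not overlap, fits that leave out libraries could hardly turn their direction, and the other fits use the same libraries. Their kept direction was thus largely set in advance. Directions turned for Mbp without Normal Chow 4 (-0.073) and within the libraries with Myl7 above 200 CPM (-0.15). They turned for Pmp22 without HFD-LNAME 2 (-0.0051), without HFD-LNAME 2 and 3 (-0.079) and with Myl7 below 200 CPM (-0.043), and for Cnp without HFD-LNAME 4 (0.011), Normal Chow 1 (0.017) or Normal Chow 2 (0.037); the cause was not tested. Leaving out 1 library, log2 fold changes ranged from -0.073 to 0.53 for Mbp, -0.0051 to 0.13 for Pmp22 and -0.091 to 0.037 for Cnp. The count of all genes called, 2 with edgeR, was 165 with the DESeq2 Wald test, 155 with its likelihood ratio test, 34 without the filter and 1 with the robust fit. It was 0 with limma-voom, 0 with thinning, 0 without HFD-LNAME 2 and 3, 0 within the libraries with Myl7 above 200 CPM and 52 within those below. These counts have unadjusted p under 0.05 for 1182 to 1895 genes. Leaving out 1 library it ranged from 0 to 3. Pairs past the threshold, 0 of 15, ranged from 0 to 2 without 1 library, with 1 without Normal Chow 1 and 2 without Normal Chow 2. The single-gene permutation test, past 0.05 for 2 of 6 genes, gave 0 to 0 without 1 library, where 3 against 4 allow no p below 0.0571. Sox10 and S100b rest on 16 to 83 counts a library.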

Other observations

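S100a1, the member of the S100 family that marks cardiomyocytes, lay on the other side of Normal Chow from S100b. It had 474, 437, 394 and 527 CPM in HFD-LNAME 1 to 4, against 484, 531, 511 and 589 CPM in Normal Chow 1 to 4. The groups overlapped, with a log2 fold change of -0.21 ± 0.10 (SE, n = 4 each; edgeR adjusted p = 0.550). The difference between both genes was not tested.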
